A study of Arabidopsis thaliana with 12 samples.

Results

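The clones described here are the transcripts of Arabidopsis thaliana seedlings that were lower under both calmodulin antagonists, trifluoperazine (TFP) and W7, than under the solvent DMSO. They were chosen from the authors' deposited ratios of TFP against DMSO and of W7 against DMSO: a member had a mean log2 ratio of at most -0.7 over the 3 arrays of each experiment, with all 6 values below 0. Only clones with a raw intensity of at least 500 in 1 of the channels on all 3 TFP arrays were considered. Of 11926 clones on the array, 6948 were that bright and 101 were members. A clone is a spotted cDNA known by its EST name (expressed sequence tag, a short read from 1 end of a cDNA). The gene table used here matched 0 of these names, so members are given by clone name, with no gene, function or sequence, and several clones can stand for 1 gene.

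Calmodulin is a small protein that binds calcium ions and then binds and regulates other proteins, among them kinases, channels, pumps and transcription factors. TFP, a phenothiazine, and W7, a naphthalenesulfonamide, bind calcium-loaded calmodulin and keep it from its targets. Both are also known to act on other proteins. Lanthanum ions (La) block calcium channels of the plasma membrane, and a pretreatment with La is used in plants to limit the entry of external calcium.

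Each array compared a test RNA with a control RNA, both from whole seedlings treated for 1 h, and there were 3 arrays for each of 4 experiments. The first was TFP against DMSO, the second W7 against DMSO, the third W7 alone against W7 after La pretreatment (W7 against La plus W7), and the last W7 after La pretreatment against DMSO after La pretreatment (La plus W7 against La plus DMSO). By the design text, the 3 arrays within each experiment were separate biological repeats. The sources used here give no dose, seedling age, genotype or length of the La pretreatment. Because whole seedlings were sampled, fewer cells of a type and less RNA per cell cannot be told apart. The markers of seedling tissues could not be checked, since no clone had a gene name.

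All ratios below are log2 of test over control, so that a value of -1 means that the test sample had 0.5 of the control's signal. Median raw intensities of the arrays were 766 to 2051 scanner units, and 80.2% to 98.0% of spots with a clone were brighter than 95% of the blank spots. The scanner file under W7 against DMSO array 2 held the same values as that of array 1, so array 2 entered only through its deposited ratio. The second array of W7 against La plus W7 correlated least within its group. Across 9181 clones, which are not independent replicates, its Pearson correlations with arrays 1 and 3 of that experiment were 0.32 and 0.36, and that of arrays 1 and 3 with each other was 0.47. It correlated at -0.45 with TFP array 2 and at -0.31 with W7 against DMSO array 3. Arrays 1 and 3 of its group were not compared with these, so these values do not set it apart. Because array 2 correlated least within its group, results on this experiment are also given without it. Counts of calls without array 1 or array 3 are given as well.

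Under TFP the members had median log2 ratios of -1.03, -1.29 and -0.54 on arrays 1 to 3, and under W7 of -0.97, -1.09 and -1.43. The mean of these medians was -0.95 ± 0.38 for TFP against DMSO and -1.17 ± 0.24 for W7 against DMSO (SD, n = 3 arrays each), which correspond to ratios of 0.518 and 0.446. All clones tested had medians near 0, with means of -0.04 in both experiments. These values chose the members and are a description with no test. The rule applied to TFP against DMSO alone took 3.66% of the clones bright enough, applied to W7 against DMSO alone 5.35%, and both together 1.45%. The smaller TFP ratios on array 3, the 1 TFP array whose test RNA carried Cy3, were spread over the members, with quartiles of -0.79 and -0.30.

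Single members had mean ratios between -2.49 and -0.70 under TFP and between -2.53 and -0.71 under W7. The mean was at most -1 for 41 members under TFP, for 66 under W7 and for 34 under both. W7 gave the lower mean in 74 of the 101 members, with a median difference, W7 minus TFP, of -0.17. As the doses are not known and the members were chosen on these values, that difference has no test. The rule's edge passed through a continuous range of values. Just inside it, N65441 had means of -0.7008 under TFP and -1.69 under W7, T41946 had -0.7047 and -0.74, and N65035 had -0.705 and -1.22. Just outside, N97105 had -0.7013 under TFP and -0.6987 under W7, N97149 had -0.94 and -0.6972, and T46187 had -0.6966 and -0.97. The W7 channel of N97105 was not above the blanks on W7 array 3.

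**Figure D1:**
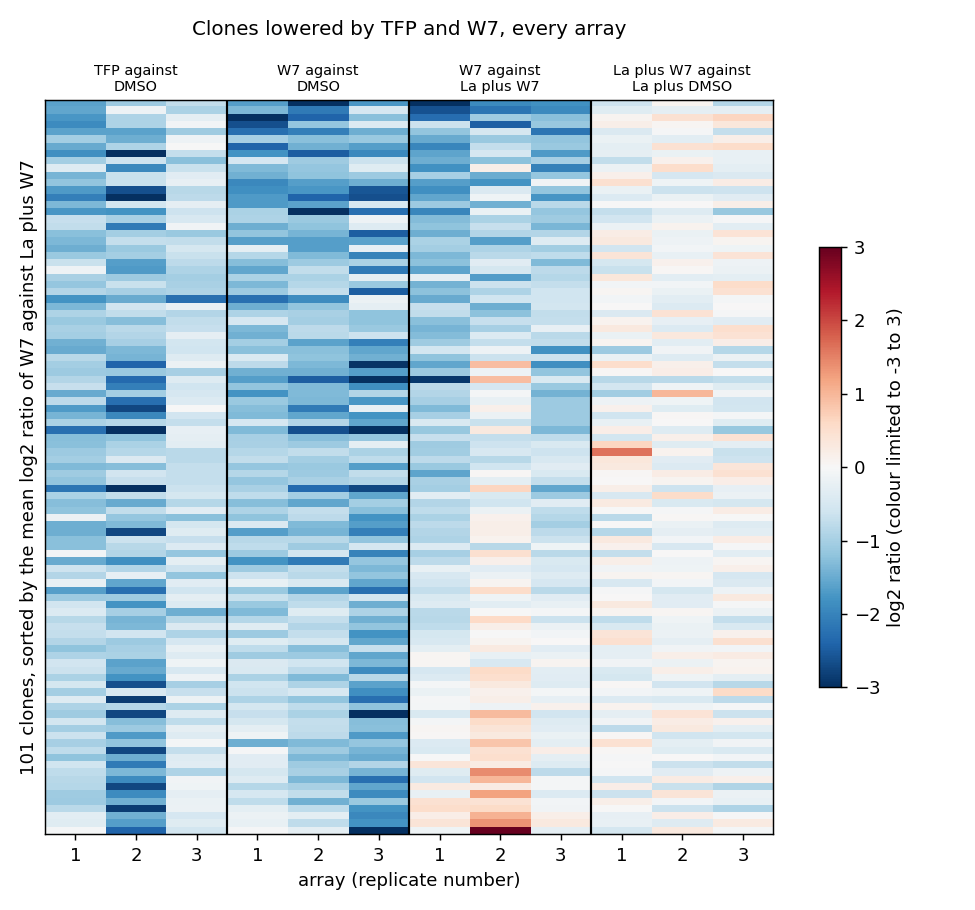
Heat map of the log2 ratio (blue below 0, red above 0, colour limited to -3 to 3) of the 101 clones in rows and the 12 arrays in columns, 3 per experiment, with rows sorted by the mean ratio of W7 against La plus W7. The first 6 columns, deposited ratios, are blue throughout because they chose the clones. The next 3, loess ratios, are mostly blue with array 2 mixed, and the last 3 are pale.

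The 12 members with the lowest mean over these 6 arrays were N64947, N65297, N97158, N65342, T21036, H77253, AA067554, T20932, N38107, N97015, T44766 and H35993. N64947 had log2 ratios of -2.25, -4.06 and -0.25 under TFP and of -1.32, -2.64 and -3.06 under W7. Its raw intensities on the TFP arrays were 1047, 447 and 2188 in the TFP channel, against 4985, 7908 and 2510 in the DMSO channel, so its spot was far above the blanks in the control RNA. It was low on every array, and least so on TFP array 3.

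N65297 reached the lowest single value among the members, -4.64 on TFP array 2, and had -2.18 and -0.64 on TFP arrays 1 and 3, with -0.97, -2.32 and -2.74 under W7. N97158 had -2.06, -3.64 and -0.79 under TFP and -1.69, -2.40 and -2.64 under W7. N65342 had -1.84, -3.47 and -0.71 under TFP and -1.79, -2.47 and -1.94 under W7. In these 3 clones TFP array 2 was the lowest and TFP array 3 the highest of the TFP values.

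H77253 was lower under W7, at -1.64, -2.47 and -3.47, than under TFP, at -0.89, -2.32 and -0.38. AA067554 had its lowest value, -3.32, on W7 array 2, the array known only from the deposited ratio. N97015 had -1.79, -1.51 and -2.25 under TFP and -2.25, -1.89 and -0.17 under W7, where its W7 channel on array 3 was not above the blanks, so that the last value has no clear size. This limit was not its alone. On W7 arrays 1 and 3 the W7 channel was above the blanks on both for 85 of the 101 members. The others had a W7 value used by the rule from a channel not above the blanks.

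W7 against La plus W7 compares W7-treated seedlings without and with La pretreatment, and its arrays did not enter the rule. A changed W7 response and an effect of La itself cannot be told apart in it, since no array compared La plus DMSO with DMSO. Of the 101 members, 91 exceeded the blanks on at least 2 arrays of every experiment and were tested, in either direction, with a limma fit over 9181 clones. The other 10, AA067484, N37508, N38440, N65011, N65443, N96988, R65544, T75976, T88101 and W43058, did not pass this filter, and their mean ratios in W7 against La plus W7 lay between -1.41 and -0.08 with no test. Of the 91 members, 24 (26.4%) were called lower in W7 than in La plus W7 at a Benjamini-Hochberg adjusted p under 0.05, and 0 were called higher. Over all clones tested, 2.12% were called lower and 2.3% higher, 4.42% in all.

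The members' medians were -0.81, -0.17 and -0.60 on the 3 arrays, with a mean of -0.53 ± 0.32 (SD, n = 3 arrays), a ratio of 0.695. The mean of the medians over all clones tested was -0.0007. The fitted ratio was below 0 for 75 of the 91 members and above 0 for 16. On all 3 arrays 51 members (56.0%) were below 0, against 20.6% of all clones tested. Array 2 differed from the others: 37 members lay above 0 on it, against 10 on array 1 and 6 on array 3, and 78 members were below 0 on both of these. At an unadjusted p under 0.05, 45 members were lower and 1 was higher, with 11.2% and 11.4% of all clones tested.

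**Figure D2:**
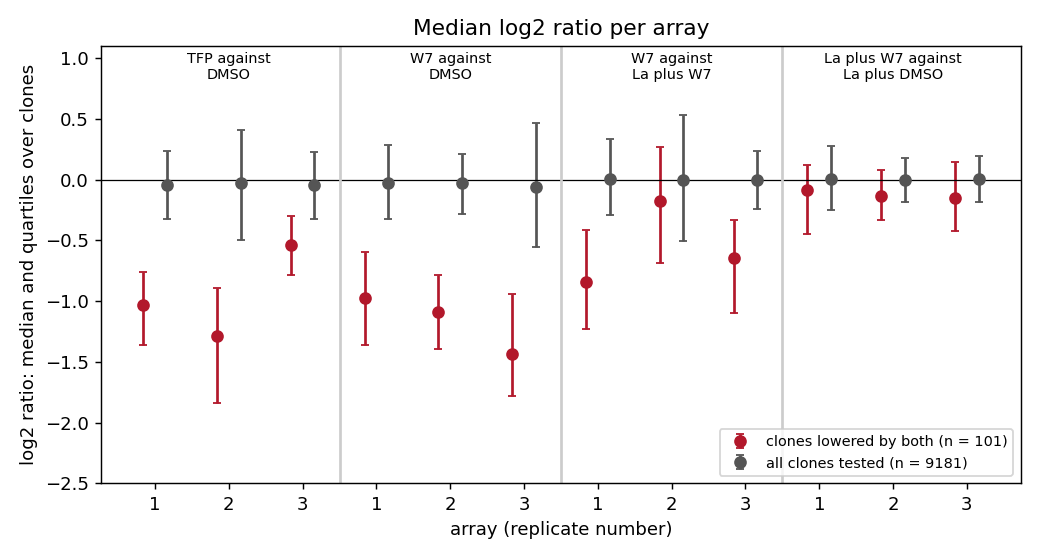
Median log2 ratio with quartiles over clones, per array and experiment, for the 101 clones lowered by both antagonists (red) and for all 9181 clones tested (grey). In W7 against La plus W7 the red medians over all 101 clones are -0.84, -0.17 and -0.65, and in La plus W7 against La plus DMSO they lie between -0.15 and -0.08, while the grey medians stay near 0.

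The call of these 24 members rests on how the dye and single arrays are treated. All 3 arrays of W7 against La plus W7 carried the W7 RNA in Cy3 in the labels, so dye and treatment cannot be told apart within them. The design text speaks of 1 dye swap per experiment, and with the direction of any 1 of these arrays turned 0 members were called. All 24 were below 0 on all 3 arrays, so turning 1 of them shrinks the mean and widens the spread. With an array turned 0 of all clones tested were called as well. This setting therefore cannot tell whether an array was swapped. A dye term estimated from the 3 arrays of La plus W7 against La plus DMSO gave 1 member called, T21724, and a dye term estimated over 11 arrays gave 4, all among the 24. With these dye terms the fitted ratio was below 0 for 78 and 83 of the 91 members, against 75 without. Over the 9181 clones tested it was below 0 for 4739 and 4608, against 4538 without. As the dye did not vary within W7 against La plus W7, its term came from other arrays and widens the SE by itself. With the term from 6 arrays, N38107 went from -2.81 to -2.70, and its limma adjusted p from 0.0126 to 0.204. The calls and signs under these terms therefore cannot tell what part the dye had in the ratios, which was not tested. In La plus W7 against La plus DMSO, where the dye differed, the members' median was -0.03 on the array with the test RNA in Cy3 and -0.13 and -0.14 on the arrays with it in Cy5. Leaving out array 1 of W7 against La plus W7 gave 2 members called. Leaving out array 2 gave 23, of which 14 were among the 24, and leaving out array 3 gave 9, of which 8 were. Without array 2 the mean of the members' array medians was -0.70. Leaving out 1 of the La plus W7 against La plus DMSO arrays, which share the estimate of the spread, gave 10 or 11. A variance model with a trend and robust estimation gave 2, and the scan set as a random block gave 43 lower and 2 higher. A scan set is a group of arrays whose scanner headers name the same image folder, and arrays 1 and 2 were of 1 set and array 3 of another. The correlation estimated within scan sets was -0.452, and a value below 0 narrows the SE and so raises the count of calls. The labels do not say whether the W7 RNA of this experiment came from the same seedlings as that of W7 against DMSO, so what the choice of members on W7 against DMSO adds here was not tested.

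T21724 was the member with the smallest adjusted p. It had ratios of -2.62, -2.19 and -1.91 in W7 against La plus W7, a fitted -2.24 (SE 0.19, limma adjusted p = 0.0006), which is a ratio of 0.212. Its raw intensities were 1129, 606 and 766 in the W7 channel, against 3444, 3023 and 2483 in the La plus W7 channel. All 3 arrays were low and close to each other. In the 19 alternative settings that kept the labelled direction of the arrays it stayed called, with ratios of -2.40 to -2.05 and adjusted p up to 0.0474, the 1 member of the 24 to do so. In the rule's experiments it varied more, with -1.56, -0.15 and -0.94 under TFP and -1.36, -2.12 and -0.49 under W7.

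N38107 had the lowest fitted ratio, -2.81 (SE 0.47, limma adjusted p = 0.0126). The values of -4.69, -1.91 and -1.82 show that array 1 was far below the other two. On array 1 its raw intensity was 3569 in the W7 channel, against 48146 in the La plus W7 channel, and on arrays 2 and 3 it was 866 and 1356 in the W7 channel, against 3863 and 4221.

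W43253 had -1.51, -1.10 and -1.19, a fitted -1.27 (SE 0.19, limma adjusted p = 0.0075), with all 3 arrays at or below -1.10. R90199 had -1.0, -1.50 and -1.17, a fitted -1.22 (adjusted p = 0.0126 in limma). H37589 had -1.08, -1.44 and -0.80, and T76739 had -1.47, -1.22 and -1.0, both with a limma adjusted p of 0.0146. H36260 was the most even of these 5, at -1.02, -0.92 and -1.04 (limma adjusted p = 0.0185). All values of these 5 clones were at or below -0.80.

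T44766 had -2.29, -1.07 and -1.26, a fitted -1.54 (SE 0.25, limma adjusted p = 0.0114). N65342 had -1.59, -0.50 and -1.70 (limma adjusted p = 0.0218), N65497 had -1.46, -0.89 and -0.87 (limma adjusted p = 0.0227), T20932 had -1.19, -0.54 and -2.20 (limma adjusted p = 0.0332), and N65288 had -1.96, -0.72 and -1.12 (limma adjusted p = 0.0281). In T44766, N65342, T20932 and N65288 array 2 was the highest of the 3. The 24 called members had fitted ratios between -2.81 and -0.80, with a median of -1.04, a ratio of 0.488. All 24 were below 0 on all 3 arrays. The called ratio nearest 0 was that of N65032, at -0.80 (limma adjusted p = 0.0495).

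**Figure D3:**
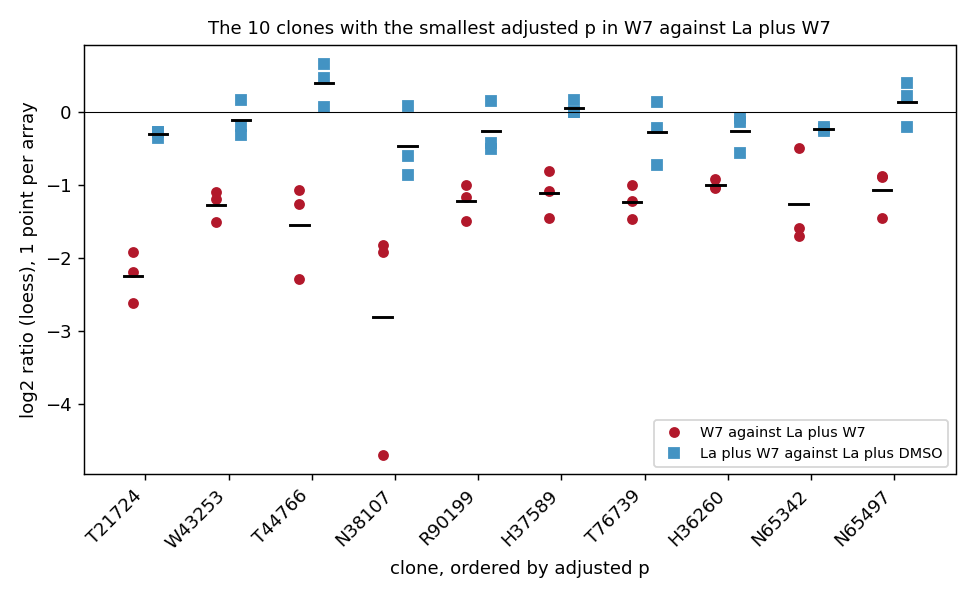
Log2 ratio on each array (points) and mean (black lines) for the 10 called clones with the smallest adjusted p, in W7 against La plus W7 (red circles) and in La plus W7 against La plus DMSO (blue squares). The red points lie between -4.69 and -0.50, and the blue points between -0.87 and 0.65.

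Of the 12 members lowest under both antagonists, 6 were called in W7 against La plus W7. N97158, at -1.55, -0.14 and -1.78, had a fitted -1.16 and a limma adjusted p of 0.0504. AA067554, at -1.97, -0.19 and -1.16, had a limma adjusted p of 0.0688. N64947 and N65297, the lowest in the rule's experiments, had -1.14, 0.28 and -1.34 and -1.01, 0.64 and -1.57 here, with limma adjusted p of 0.225 and 0.312. H77253 had -2.90, 0.93 and -0.46. In each of these 5 clones array 2 lay above arrays 1 and 3. H35993 had -0.88, 0.17 and -0.80 (limma adjusted p = 0.247).

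The members with the highest fitted ratios were N97182, R90370, AA067444, N65427, N65613 and T41818, of which 0 were called. N97182 had 3.33 on array 2 and -0.12 and -0.26 on arrays 1 and 3, so its fitted 0.98 (limma adjusted p = 0.326) came from 1 array. The same clone had -2.40 on TFP array 2 and -3.32 on W7 against DMSO array 3, with -0.06, -0.56, -0.03 and -0.30 on the other 4 arrays of the rule. R90370 had 0.38, 1.36 and 0.30 (limma adjusted p = 0.141), and AA067444 had 0.19, 1.04 and 0.17. The control channel of R90370 on array 2 was not above the blanks, so that its 1.36 has no clear size. These 2 were the members above 0 on all 3 arrays. T41818 was above 0 on array 2 alone, at 1.22, with -0.22 and -0.40 on the others.

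La plus W7 against La plus DMSO measures the W7 response in seedlings of which both samples had been pretreated with La. Here the members' medians were -0.03, -0.13 and -0.14 on the 3 arrays, with a mean of -0.10 ± 0.06 (SD, n = 3 arrays), a ratio of 0.931. For the members with a mean of at most -1 under both antagonists that mean was -0.26. Of the 91 members tested, 0 were called in either direction in the same limma fit, and 3 were lower and 0 higher at an unadjusted p under 0.05. Over all clones tested 0 were called, with 0.697% lower and 1.42% higher at an unadjusted p under 0.05, 2.11% in all. The fit used 1 estimate of the spread per clone for both lanthanum experiments. Over all clones tested the median SD over arrays was 0.27 here and 0.38 in W7 against La plus W7. The p-values of both experiments rest on this shared spread. It tends to widen the SE in this experiment and to narrow it in W7 against La plus W7. In the latter 22.6% of all clones tested passed an unadjusted p under 0.05 in limma. The counts called in the 2 experiments are therefore not a like comparison, and no fit with a separate spread was run. The smallest adjusted p was 0.62 over all clones and 1.00 over the members.

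The mean ratio was below 0 for 65 members and above 0 for 26, and 22 members (24.2%) were below 0 on all 3 arrays, against 11.4% of all clones tested. The fitted ratios ran from -0.79 to 0.40. The 95% interval of a member's ratio had a median half-width of 0.49, and its lower end lay above -0.7 for 52 of the 91 members and above -1 for 78. For the remaining members a fall as large as the rule asked for under W7 was not excluded by these intervals, whose spread came from both lanthanum experiments. The 3 arrays had correlations with each other of -0.14, -0.10 and 0.16 across all clones tested, and of -0.24, 0.16 and 0.34 across the 91 members. They thus shared little order among clones.

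The lowest members in this experiment were H77253, at -0.84, -0.81 and -0.73 (fitted -0.79, SE 0.525), AA067554, at -0.71, -0.39 and -1.14, and T20661, at -1.10, -0.11 and -0.86. H77253 was the most even of the 3, and its 3 ratios in W7 against La plus W7 were spread from -2.90 to 0.93. Its SE of 0.525 includes that spread. The highest were T44766, at 0.07, 0.46 and 0.65, T22081, at 1.63, 0.11 and -0.66, and N65288, at -0.30, 0.47 and 0.56. Of these, T44766 was above 0 on all 3 arrays, while T22081 was high on array 1 alone. Each of the 6 had a limma adjusted p of 1.00.

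The 24 members called lower in W7 against La plus W7 had a median of -0.14 in La plus W7 against La plus DMSO, with a range from -0.49 to 0.40. At an unadjusted p under 0.05, 0 of the 24 passed. The La plus W7 sample is the control in one experiment and the test sample in the other, and the labels do not say whether the same RNA was used, so the values stand side by side with no test between them. The other 67 members tested had a median of -0.34 in W7 against La plus W7, and the mean of their array medians in La plus W7 against La plus DMSO was -0.11 ± 0.07 (SD, n = 3 arrays), against -0.13 ± 0.08 for the 24.

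**Figure D4:**
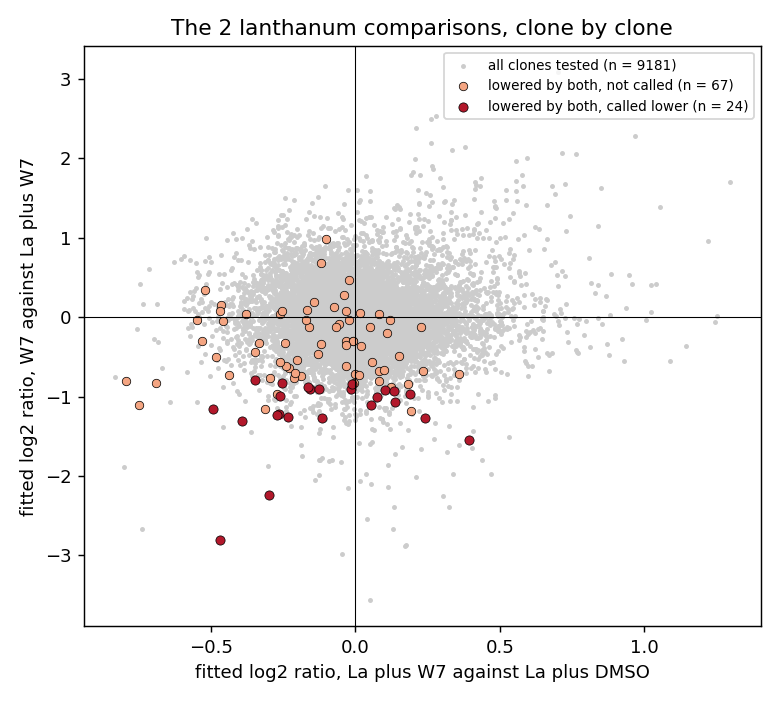
Fitted log2 ratio of W7 against La plus W7 (vertical axis) plotted against that of La plus W7 against La plus DMSO (horizontal axis), for all 9181 clones tested (grey), the 67 members not called (orange) and the 24 called lower (red). The members spread downward along the vertical axis, to -2.81, and stay within -0.79 to 0.40 on the horizontal axis.

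The 2 lanthanum experiments can be chained, since the sum of their log2 ratios is W7 against La plus DMSO. Over all 101 members the sum had a median of -0.76, beside a median of -1.12 for the mean ratio of W7 against DMSO. The remainder, W7 against DMSO minus the sum, had a median of -0.53, ranged from -2.10 to 1.22 and was below 0 for 85 members. This remainder stands for La plus DMSO against DMSO, which no array measured, and it holds the selection of the members on W7 against DMSO, so it has no test. The sum came from loess ratios and W7 against DMSO from deposited ratios, so the remainder also holds any difference in processing. The 101 members include the 10 that were not tested.

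The same rule with the sign turned picked 307 clones raised by both antagonists, of which 284 were tested. Their mean of array medians was 0.63 ± 0.13 in W7 against La plus W7 and 0.24 ± 0.08 in La plus W7 against La plus DMSO (SD, n = 3 arrays each), against -0.53 ± 0.32 and -0.10 ± 0.06 for the lowered clones. Of the raised clones 96 (33.8%) were called higher in W7 against La plus W7, against 2.3% of all clones tested, and 0 were called lower. With a dye term in the fit of 6 arrays 6 of all clones tested were called higher, so the count of these calls depends on the dye setting too. With any 1 array turned 0 were called higher, a setting that takes calls away by itself. In La plus W7 against La plus DMSO, 35 of the 284 were higher at an unadjusted p under 0.05, against 1.42% of all clones tested, and 3 of the 91 lowered clones were lower, against 0.697% of all clones tested. The difference between both groups of clones was not tested.

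The members were spread unevenly over name series and places on the array, which the rule did not use, and this has no test. They came from all name series by letter and from all 8 rows of spot blocks. Clones whose names start with N made up 45 of the 101 members (44.6%), against 25.6% of the clones bright enough for the rule. The N65 names gave 22 members from 541 clones (4.07%), the N97 names 7 from 180 (3.89%) and the W43 names 12 from 398 (3.02%), against 1.45% over all clones bright enough. Of the same clones, 4.42% were raised by both antagonists by the rule with the sign turned, and this share was 3.88% among the N65 names, 7.22% among the N97 names and 4.77% among the W43 names.

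The array is a grid of spot blocks in 8 rows. Row 5 held 29 members among 1030 clones (2.82%) and row 8 held 6 among 1045 (0.574%), while the raised clones made up 3.79% of row 5 and 3.45% of row 8. Within a block, spot row 12 held 16 members among 378 clones (4.23%) and spot row 10 held 21 among 618 (3.40%). Of the bright clones with N65 names, 429 of 541 lay in spot row 10, and in spot row 12 lay 242 of the 398 W43 names and 106 of the 180 N97 names. The N65 names gave 18 members of 429 clones inside spot row 10 and 4 of 112 outside it, while the other names in spot row 10 gave 3 of 189. In spot row 12 the W43 names gave 9 of 242 and the N97 names 6 of 106, and outside it 3 of 156 and 1 of 74, while the other names there gave 1 of 30. Among bright clones that were not members, median deposited ratios in row 5 ran from -0.18 to 0.06 over the arrays. In row 8 they ran from -0.36 (TFP array 2) to 0.39 (W7 against La plus W7 array 2). The values are descriptions of the clones the rule chose, and the part of the place in the ratios was not tested. The lanthanum ratios above came from a loess fit over each whole array. A loess fit within each print block was run only as an alternative, and not for the deposited ratios that chose the members. Under this alternative 24 members were called lower in W7 against La plus W7, 20 of them among the 24 above. In all 434 clones were called, 194 of them lower.

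**Figure D5:**
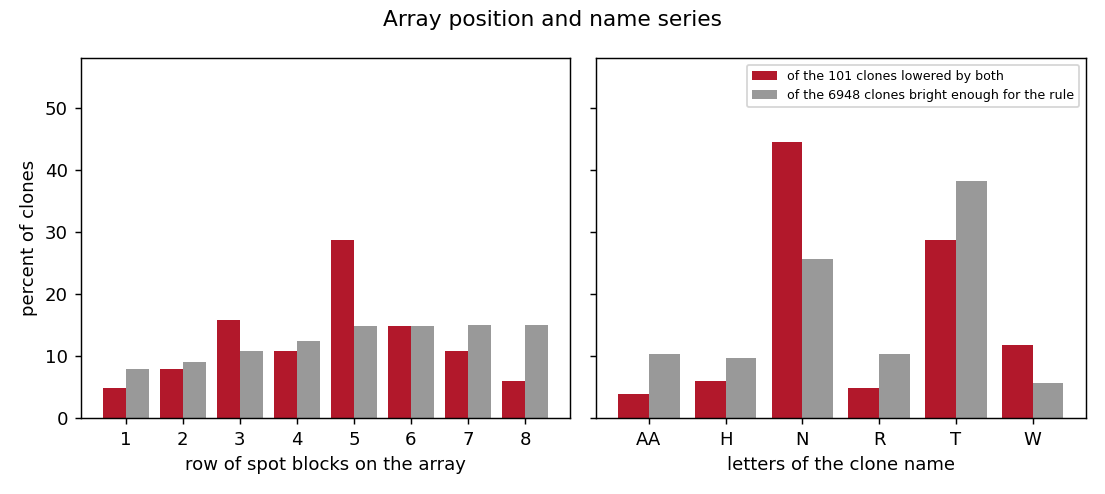
Percent of the 101 clones lowered by both antagonists (red) and of the 6948 clones bright enough for the rule (grey) by row of spot blocks on the array (left) and by the letters of the clone name (right). Row 5 and the N names hold larger shares of the lowered clones than of all bright clones, 28.7% and 44.6% against 14.8% and 25.6%.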

How the data were processed

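Two-colour arrays were read from the authors' deposited scanner output, where spot intensity and local background are raw per the file headers, and from the authors' deposited table, whose values match a linear ratio of test to control, with column medians of 0.95 to 1.01. The normalization behind it is not stated in the labels or headers. Dyes and direction were taken from the labels. The members and lists were chosen with earlier results of these data known.

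The rule used log2 of the deposited ratio, averaged over spots of 1 name. For the lanthanum experiments, intensities were corrected with normexp (offset 50) followed by loess for every array, where the 323 blanks had weight 0 (limma 3.58.1, R 4.3.3). A clone was tested if it was brighter than 95% of the blanks in either channel on at least 2 arrays of every experiment. Array 2 of W7 against DMSO was left out of this filter, so both other arrays of that experiment had to pass. The 6 lanthanum arrays entered 1 limma fit (lmFit, eBayes) with a coefficient per experiment and no dye term, with 4 residual and 6.18 prior degrees of freedom. P-values were two-sided, adjusted by Benjamini-Hochberg over 9181 clones and called under 0.05. The script was tested on simulated data. The number of arrays limits the precision. Median SE of a member was 0.222.

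Clones were named by a fixed rule: the 12 lowest over the rule's arrays, the 6 lowest and 6 highest in W7 against La plus W7, the 3 lowest and 3 highest in La plus W7 against La plus DMSO, up to 10 called by adjusted p, and 3 on each side of the threshold. N65032, T20760, T22039, T42907 and T75976, and clones that lost or turned their call in an alternative, were named after their values were seen. The gene table of 38312 genes matched 0 clone names, so gene lists and tissue markers were not applied. Alternatives covered the dye term, scan sets, the variance model, normalization, filters, array direction and leaving out each array.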

Additional observations from a re-analysis of the deposited data

Results flagged for a closer look

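A set of 4 clones stood out because their ratio was above 0 on all 3 arrays of La plus W7 against La plus DMSO and below 0 on all 3 arrays of W7 against DMSO, where the rule had required it. T44766 averaged 0.40, T22039 0.23, T20760 0.10 and T42907 0.08 in La plus W7 against La plus DMSO, with array values of 0.07, 0.46 and 0.65 for T44766, of 0.02, 0.23 and 0.45 for T22039, of 0.02, 0.08 and 0.20 for T20760 and of 0.03, 0.20 and 0.02 for T42907. The difference between the experiments was not tested. These were 4 of the 91 members tested (4.40%), against 11.4% of all clones tested above 0 on all 3 arrays, so the count is not a result about the members. T75976, which had no test, met the same condition with 0.18, 0.06 and 0.34. No formal outlier test was run on groups of 3 arrays.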

How the results depend on the processing

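Of the members, 24 were called lower in W7 against La plus W7. That count was 1 with a dye term in the fit of 6 arrays, 4 with all 11 arrays and a dye term, 2 with a trend and robust variance model, 45 (43 lower, 2 higher) with the scan set as a random block, and 0 with array 1, 2 or 3 of that experiment turned, as the dye swap in the design text would ask of 1 array. Leaving out 1 array gave 2 to 23 members. Over all clones the count of 406 became 10, 40, 81, 2114 and 0 under the same settings, and 80 to 284 without 1 array. In the fit with scan sets the correlation within a set was -0.452, which narrows the SE. Array weights called 1 clone in La plus W7 against La plus DMSO. For members, the count lay between 17 and 36 under the other 9 settings, and 0 members were called in La plus W7 against La plus DMSO under any setting run. The number of members was 217 at a threshold of -0.5, 34 at -1.0 and 93 to 165 when 1 array of the rule was left out (165 without TFP array 3). Turning 1 of 3 arrays that share a sign shrinks the mean by itself. With arrays turned, N38107 had 0.32, N65288 0.04, N97015 0.11, T21036 0.07, W43482 0.02, W43153 0.11, W43767 0.07 and T20932 0.16. The members' median in W7 against La plus W7 was -0.70 to -0.39 without 1 array, and in La plus W7 against La plus DMSO -0.14 to -0.09. Members at a threshold of -1 had -0.26 there. Same-numbered arrays deviated together at correlations of 0.07, 0.17 and -0.08 across all clones tested, and at 0.10, 0.38 and 0.27 across the 91 members. As not every value over all clones passed 0.1, the numbers were not taken to pair the arrays, and the replicate block gave 30 members and 570 clones. The causes of these changes were not tested. The 10 members below the filter on dim spots had no test.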
